A study of Mus musculus with 12 samples.

Results

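The lysosomal hydrolases and the proton pump were followed as 42 genes, taken as a list of symbols that names the compartment's genes. The rule itself uses no measured value, but the list was chosen with earlier results of these data known. The list holds 6 subunits of the membrane-embedded V0 sector and 8 of the cytosolic V1 sector of the vacuolar H+-ATPase (V-ATPase), 2 accessory proteins of that pump, 11 proteases, 4 lipid- and glycan-degrading hydrolases, 2 lumenal cofactor precursors, 6 membrane and transport proteins, and the 3 transcription factors Tfeb, Tfe3 and Mitf. All 42 symbols were found among the 32190 symbols of each count table. All 42 also held enough counts to be tested, among 13040 genes of the tumoral cells and 13072 genes of the cultured cells.

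Lysosomes break down proteins, lipids and glycans with hydrolases that work at acidic pH. The V-ATPase makes the lumen acidic: its V1 sector hydrolyses ATP, and this drives protons through the V0 sector. Tfeb, Tfe3 and Mitf, the MiT family, bind short E-box elements near the starts of many lysosomal genes and raise their transcription. In dendritic cells (DCs), which present antigen to T cells, cathepsin S trims the invariant chain of MHC class II, and DCs are known for a milder lysosomal proteolysis than macrophages.

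The 12 mouse libraries fall into 6 groups of 2. Tumoral DCs were sorted from Zbtb46-Tdtomato mice bearing MC38 tumors, at the late stage on day 14 and at the early stage on day 7. MC38 cells derive from a colon carcinoma of the mouse, the hosts carry a red reporter at Zbtb46, a transcription factor of conventional DCs, and their genotype is given as WT. Bone marrow-derived DCs (BMDCs) came from mice labelled Pde5 knockout and from WT mice, and each genotype was studied after 12 h with lipopolysaccharide (LPS) at 200 ng/ml and without stimulation. LPS is the bacterial ligand of Toll-like receptor 4. The BMDC groups are therefore the LPS-treated libraries labelled knockout, the LPS-treated WT libraries, the unstimulated libraries labelled knockout and the unstimulated WT libraries. Whether replicate libraries stem from different mice or cultures is not stated, and every p-value below rests on their spread alone, part or all of which could be technical.

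Library totals ran between 14153700 and 19293261 counts in tumoral DCs and between 16122941 and 19684338 counts in BMDCs. Pde5a, the gene named by the knockout label, had 22 and 43 counts in the LPS libraries labelled knockout against 52 and 20 in WT LPS libraries, and 47 and 61 in the unstimulated libraries labelled knockout against 55 and 37 in unstimulated WT libraries. These counts did not set the genotype labels apart. Which part of the gene was deleted is not given in the labels, so the genotype is used here as labelled and unchecked. The 14 conventional DC markers summed to between 12665 and 25098 CPM in every library, and all had counts in every library except Cd209a, which had 0 in both WT LPS libraries and in knockout-labelled LPS replicate 2. The early tumoral libraries stood apart from each other in markers of mature DCs, with 710 CPM in replicate 1 and 2535 CPM in replicate 2. The LPS libraries labelled knockout differed in monocyte and macrophage markers, with 1380 CPM in replicate 1 and 2509 CPM in replicate 2. CPM is the usual depth-scaled count, here and below taken over the library total multiplied by its TMM scaling factor.

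Promoters of 33 of the 42 genes were listed in RefSeq for GRCm38.p6, the mm10 assembly, as 250 bases before to 50 after a transcription start. The octamer GTCACGTG, a core of the element bound by the MiT factors, was searched on both strands, where its reverse complement reads CACGTGAC. It was found for 8 of the 33 genes (24.2%), Atp6v0b, Atp6v0d1, Ctsa, Ctsd, Lgmn, Gla, Lamp1 and Mcoln1, against 2.55% of the 27025 genes with a promoter. The shorter E-box CACGTG, which the octamer contains, was found for 11 of the 33 (33.3%) against 8.09% of all, and the variant TCATGTG for 7 (21.2%) against 4.31%. A match is a description of the letters in this window and not a measured binding site. The 4 promoters that follow share the octamer, printed in capitals on whichever strand it lies, while not all of their genes moved alike in the BMDCs. With LPS in WT, edgeR called Lgmn higher and both Ctsa and Atp6v0b lower, as given further on. Atp6v0d1 was not called there, and was called lower for the knockout label. They are written in the sense of the gene, 5′ to 3′, for Lgmn (chr12:102439043-102439342, minus strand), Ctsa (chr2:164833523-164833822, plus strand), Atp6v0b (chr4:117887280-117887579, minus strand) and Atp6v0d1 (chr8:105566015-105566314, minus strand). RefSeq lists a further start upstream for Lgmn and for Ctsa, so for these genes the window belongs to the downstream one of their listed starts.
Lgmn: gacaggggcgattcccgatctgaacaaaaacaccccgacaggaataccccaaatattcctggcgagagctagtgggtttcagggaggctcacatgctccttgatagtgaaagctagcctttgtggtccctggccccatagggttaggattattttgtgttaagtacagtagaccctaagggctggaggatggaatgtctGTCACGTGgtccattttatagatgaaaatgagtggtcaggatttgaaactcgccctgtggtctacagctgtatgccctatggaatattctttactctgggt
Ctsa: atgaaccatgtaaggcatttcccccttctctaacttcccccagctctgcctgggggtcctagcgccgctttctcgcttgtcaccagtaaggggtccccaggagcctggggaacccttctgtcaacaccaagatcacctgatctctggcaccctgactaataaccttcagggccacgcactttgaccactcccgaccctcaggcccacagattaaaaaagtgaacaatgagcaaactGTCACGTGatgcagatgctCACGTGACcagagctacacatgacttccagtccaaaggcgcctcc
Atp6v0b: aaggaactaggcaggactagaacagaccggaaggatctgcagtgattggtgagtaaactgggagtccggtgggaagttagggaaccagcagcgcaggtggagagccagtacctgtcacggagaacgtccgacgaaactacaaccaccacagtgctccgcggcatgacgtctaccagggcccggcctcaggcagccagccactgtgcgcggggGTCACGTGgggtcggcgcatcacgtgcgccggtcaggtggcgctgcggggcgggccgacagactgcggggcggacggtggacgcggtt
Atp6v0d1: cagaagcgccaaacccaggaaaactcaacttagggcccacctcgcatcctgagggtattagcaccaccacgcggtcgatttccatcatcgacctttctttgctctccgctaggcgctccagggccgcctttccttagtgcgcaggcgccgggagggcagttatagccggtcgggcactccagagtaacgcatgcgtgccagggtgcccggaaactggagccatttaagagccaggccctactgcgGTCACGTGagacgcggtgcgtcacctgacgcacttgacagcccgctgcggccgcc
Ctsa carries the octamer at 2 places, which begin 14 bases before that start and at position 6, where counting begins with the start base itself. In the other windows it begins 51 bases before the start for Lgmn, 38 before it for Atp6v0b and 5 before it for Atp6v0d1.

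Together the 42 genes took a larger share of the RNA in tumoral DCs of the late stage than of the early stage, and a smaller share in BMDCs labelled knockout than in WT BMDCs. The share of all counts was 4.20 and 4.54% in the late tumoral libraries, against 3.67 and 2.79% in the early ones. It was 1.57 and 1.91% in LPS libraries labelled knockout, against 2.35 and 2.06% in WT LPS libraries, and 2.09 and 2.37% in unstimulated libraries labelled knockout, against 2.94 and 2.71% in unstimulated WT libraries. In each of these 3 pairs the groups did not overlap. The 16 proton pump genes followed the same order, with 0.402 and 0.417% late against 0.315 and 0.287% early, 0.215 and 0.235% in LPS knockout-labelled against 0.287 and 0.253% in WT LPS libraries, and 0.238 and 0.274% in unstimulated knockout-labelled against 0.372 and 0.322% in unstimulated WT libraries. The lumenal cofactors overlapped between stages, with 1.24 and 1.45% late against 1.25 and 0.908% early, and the 11 proteases overlapped between unstimulated genotypes, with 0.870 and 0.922% in knockout-labelled against 1.17 and 0.909% in WT libraries. The 3 MiT factors also overlapped between stages, with 0.0259 and 0.0262% late against 0.0265 and 0.0217% early. With LPS, membrane and transport genes overlapped between genotypes, with 0.351 and 0.365% in knockout-labelled against 0.365 and 0.344% in WT libraries. The 6 membrane and transport genes took 0.325 and 0.302% in unstimulated knockout-labelled libraries, above the 0.278 and 0.272% of unstimulated WT libraries. Of these genes only Npc2 was higher in both knockout-labelled libraries, Lamp2 and Npc1 were lower, and Lamp1, Mcoln1 and Scarb2 overlapped. Npc2 made up 1729 and 1331 of the summed 3268 and 2940 CPM in knockout-labelled libraries, and 820 and 767 of 2590 and 2464 CPM in WT libraries. These sums weigh abundant genes most, and they are given without a test. In bulk RNA, fewer cells of a type and less RNA per cell cannot be told apart.

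**Figure D1:**
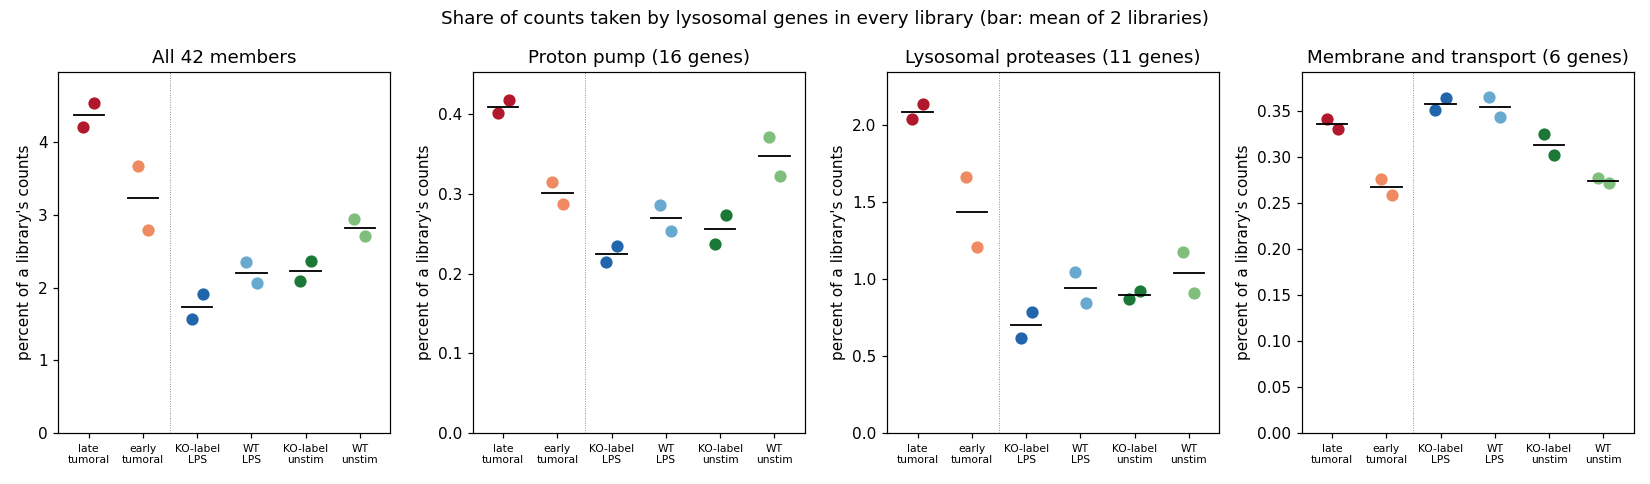
Percent of each library's counts held by all 42 genes, by the 16 proton pump genes, by the 11 proteases and by the 6 membrane and transport genes, with 1 point per library in 6 groups and a bar at the mean of 2 libraries. For all 42 genes the late tumoral points (4.20 and 4.54%) lie above the early ones (3.67 and 2.79%), and the LPS knockout-labelled points (1.57 and 1.91%) lie below the WT LPS points (2.35 and 2.06%). The dotted line parts the experiments, which have separate count tables.

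Levels between genes were compared per length, as CPM divided by the length of the gene's merged exons in kb. Psap, the precursor of the saposins that present glycolipids to hydrolases, stood first in each of the 6 groups, at 4122 ± 562 late and 3141 ± 296 early, 1313 ± 313 in LPS knockout-labelled and 1909 ± 45.0 in WT LPS, and 2202 ± 419 in unstimulated knockout-labelled and 3186 ± 161 in unstimulated WT libraries (CPM per kb, SD, n = 2). Ctss, cathepsin S, was among the 3 highest genes in each group, at 1775 ± 181 late and 1512 ± 131 early, and between 962 and 1165 in the BMDC groups. Mitf was last in every group except the early tumoral one, with means between 2.00 and 7.33 CPM per kb, and in early tumoral libraries Atp6v0d2 was last at 3.6. Across the experiments, which were scaled separately and not tested against each other, Ctsc, the dipeptidyl peptidase that activates granule serine proteases, held 1490 and 1624 CPM in late and 1278 and 1429 CPM in early tumoral libraries but 193 to 288 CPM in the BMDCs. Atp6v0d2, a V0 subunit known from osteoclasts and macrophages, held 49.4 and 36.1 CPM in late and 10.5 and 8.95 CPM in early tumoral libraries and 21.3 to 258 CPM in the BMDCs, so that its ranges overlapped.

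Late tumoral DCs were compared with early ones to ask how these cells changed as the tumor grew. No gene of the list passed at an adjusted p under 0.05 in edgeR: 0 were called higher and 0 lower, against 0% and 0.023% of all genes. The direction was nevertheless shared, with a positive log2 fold change for 40 of 42 and a median of +0.54, against +0.01 over all genes tested. Both late libraries lay above both early ones for 37 members and below them for 1, Scarb2, where 23% of all genes lay above and 22.2% below. An unadjusted p under 0.05 was reached by 20 members with higher and 0 with lower late values, against 3.91% and 7.12% of all genes. The members share the same 4 libraries and can move together, so these counts do not treat them as independent and are given without a test. DESeq2 called 3 members higher, Atp6v0d2, Ctsk and Ctsl, and 0 lower, where it called 0.613% of all genes higher and 1.77% lower, and limma-voom called 0 members and 0% of all genes.

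Among the pump genes, Atp6v0d2 (chromosome 4, 19876838 to 19922566 in mm10, minus strand) showed the widest gap, with 49.4 and 36.1 CPM in late against 10.5 and 8.95 CPM in early libraries. The groups were far apart, and its log2 fold change of 2.14 (SE 0.276) had an edgeR adjusted p of 0.0557. Atp6v1a, the catalytic subunit of the V1 sector, had 471 and 436 CPM in late against 284 and 264 CPM in early libraries (0.73, SE 0.215, edgeR adjusted p = 0.295). Atp6v0d1, the paralog of Atp6v0d2 that most cells use, had 236 and 284 CPM against 177 and 195 CPM, a smaller gap (0.48, SE 0.221). The 16 pump genes of the list all had a positive log2 fold change, with sector medians of +0.63 for V0 and +0.54 for V1. This did not extend to pump genes outside the list. Of 13 further pump subunits and assembly genes tested, 6 had positive and 7 negative values, with a median of -0.25 and 0 called.

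Of the 11 proteases 0 were called, and Ctsk and Ctsl had the smallest p. Ctsk, a collagen-degrading cathepsin of osteoclasts, had 40.5 and 26.4 CPM in late against 9.34 and 11.6 CPM in early libraries (1.67, SE 0.307, edgeR adjusted p = 0.113). Ctsl, a broad endopeptidase, had 788 and 900 CPM against 281 and 427 CPM (1.25, SE 0.269, edgeR adjusted p = 0.162). Both genes were separated between stages in each library, although the late Ctsk values and the early Ctsl values each differed by more than 1.5 times. All 11 proteases had positive values, from +0.20 for Ctsc to these. The aspartic protease Ctsd, at 2495 and 3404 CPM late against 1760 and 1001 CPM early, had early libraries more than 1.5 times apart, as had Grn, the progranulin gene.

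Markers of other cells moved with the stage. The summed 15 monocyte and macrophage markers, each detected in every library, came to 20345 and 22941 CPM late against 16838 and 13966 CPM early, with 12 of 15 log2 fold changes positive and 0 called. The 12 T cell markers summed to 250 to 373 CPM late against 597 to 651 CPM early, with 1 called lower, and the 9 NK and cytotoxic markers to 118 to 292 against 1022 to 1360 CPM, with 0 called. The 9 fibroblast markers summed to 87.9 to 262 against 423 to 922 CPM and the 7 endothelial ones to 73.6 to 88.2 against 114 to 121 CPM, with 0 called and a negative value for all 8 and all 7 tested. The 14 conventional DC markers overlapped between stages, at 16487 to 22383 against 17909 to 25098 CPM, with 12 values negative and 0 called. The 6 osteoclast markers, of which Calcr had 0 counts in each tumoral library and Oscar in both late ones, summed to 172 to 193 against 112 to 114 CPM, with 0 of 4 tested called. Their part in the lysosomal values was not tested. The number of members called rested on single libraries: it was 6 without early replicate 1 (Atp6v0d2, Ctsd, Ctsk, Ctsl, Grn and Hexa), 4 without early replicate 2 and 0 without either late library.

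**Figure D2:**
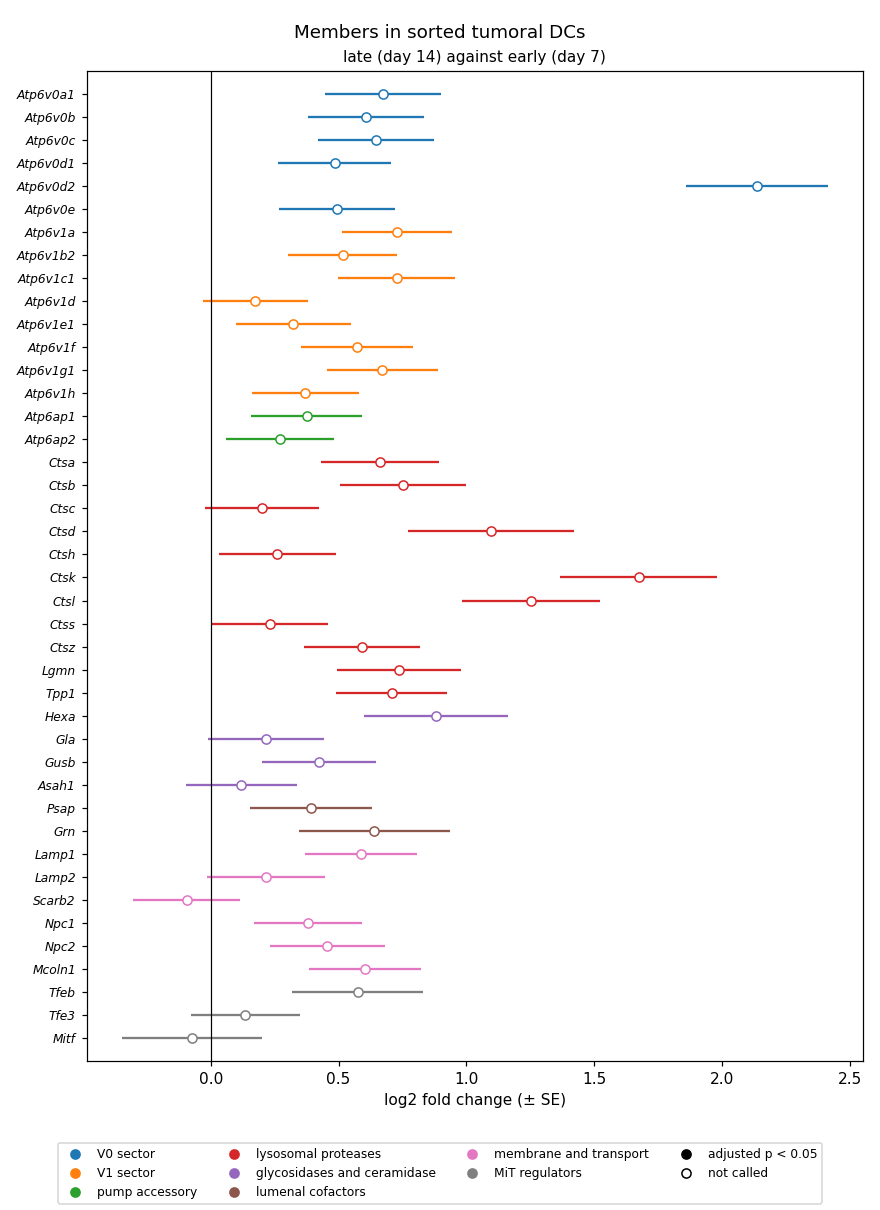
The log2 fold change of each of the 42 genes in late (day 14) against early (day 7) tumoral DCs, with its standard error, coloured by role. Points right of 0 are higher late: 40 of 42 are, with Atp6v0d2 at 2.14, Ctsk at 1.67 and Ctsl at 1.25, and open symbols mark that 0 passed the adjusted threshold.

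In WT BMDCs, the comparison of LPS with no stimulation asked for the response to a bacterial signal, and the list split. edgeR called 4 members higher and 9 lower, where 20% of all genes were called higher and 17.6% lower, so the total is near the background. The genes that rose were Npc2, Lgmn, Ctsz and Ctsh, which are a soluble sterol carrier and 3 proteases. Those that fell were Hexa, Gusb, Npc1, Tfeb, Psap, Ctsa, Atp6ap1, Atp6v0b and Atp6ap2. The median over the list was -0.17, against -0.02 over all genes. Both LPS libraries lay above both unstimulated ones for 10 members and below them for 20, where 35.1% of all genes lay above and 35.9% below.

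Npc2 (chromosome 12, 84754559 to 84773112, minus strand), which binds cholesterol in the lumen and hands it to Npc1, had 1971 and 1858 CPM with LPS against 820 and 767 CPM without. That is a 2.41-fold rise (log2 1.27, SE 0.146, edgeR adjusted p = 0.000565). Lgmn (chromosome 12, 102394082 to 102439728, minus strand), the asparaginyl endopeptidase that also matures cathepsins, had 1511 and 1452 CPM against 759 and 598 CPM (1.13, SE 0.156, edgeR adjusted p = 0.00115). Ctsz (chromosome 2, 174427494 to 174439039, minus strand), a carboxypeptidase, had 1801 and 1698 CPM against 1015 and 849 CPM (0.91, SE 0.136, edgeR adjusted p = 0.00164). For these 3 genes the lowest LPS library stood well above the highest unstimulated one. Ctsh, an aminopeptidase, rose less, with 574 and 607 CPM against 438 and 456 CPM (0.40, SE 0.0977, edgeR adjusted p = 0.0127).

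Hexa (chromosome 9, 59539540 to 59565109, plus strand), the alpha subunit of beta-hexosaminidase, had 201 and 179 CPM with LPS against 366 and 394 CPM without (-0.999, SE 0.181, edgeR adjusted p = 0.00395). Gusb, beta-glucuronidase, had 188 and 170 CPM against 349 and 305 CPM (-0.87, SE 0.181, edgeR adjusted p = 0.00713). Npc1, the membrane protein that exports lysosomal cholesterol, had 122 and 102 CPM against 203 and 202 CPM (-0.85, SE 0.159, edgeR adjusted p = 0.00429). The partners Npc1 and Npc2 thus moved in opposite directions, and in both the groups were apart. Psap fell with 5327 and 5152 CPM against 8430 and 9053 CPM (-0.74, SE 0.197, edgeR adjusted p = 0.0189). Of the pump, the proteolipid Atp6v0b (-0.32) and the accessory proteins Atp6ap1 (-0.42) and Atp6ap2 (-0.31) fell, 0 of the 8 V1 subunits were called, and Atp6v0c (+0.24), Atp6v0e (+0.18) and Atp6v0a1 (+0.14) had positive values short of the threshold, of which Atp6v0e and Atp6v0a1 turned negative under library-size scaling.

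Replicates differed by more than 1.5 times for some members. Ctsl had 476 and 233 CPM with LPS against 521 and 205 CPM without, and Atp6v0d2 had 154 and 60.2 CPM against 258 and 94.6 CPM. For both genes replicate 1 of each WT group was the high one, and the groups overlapped. Ctsd had 951 and 627 CPM against 1951 and 1373 CPM, so that its groups did not overlap. Its log2 fold change of -1.08 (SE 0.383) was not called (edgeR adjusted p = 0.0654), but limma-voom, the 10 CPM filter, library-size scaling and the fits without either knockout-labelled LPS library called it lower, and its adjusted p ran between 0.0343 and 0.249 over all alternatives. Ctsb and Ctsk also differed by more than 1.5 times between the WT LPS libraries.

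Mature DC markers moved with LPS in WT: of 9 tested, 7 rose and 0 fell, and the 10 listed summed to 23527 to 26694 CPM with LPS against 10550 to 12513 CPM without. Of 15 monocyte and macrophage markers 6 rose and 4 fell, and they summed to 2693 to 3391 against 3950 to 4191 CPM. Of 14 conventional DC markers 3 rose and 7 fell. Of 9 tested neutrophil markers 0 rose and 5 fell, and the 10 listed summed to 62.1 to 70.3 against 111 to 172 CPM. Their part in the lysosomal values was not tested. Of the 13 called members, 7 were called in each of 15 alternative fits, namely Npc2, Lgmn, Ctsz, Hexa, Gusb, Npc1 and Tfeb. The number called lower was 5 without unstimulated WT replicate 2, namely Gusb, Hexa, Npc1, Tfeb and also Atp6v1a, and 4 without WT LPS replicate 2, namely Gusb, Hexa, Npc1 and Tfeb. It was 6 without WT LPS replicate 1 or without unstimulated WT replicate 1. Scaling by library size alone, which moves the median of all genes by -0.20, gave 3 higher and 19 lower.

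The unstimulated libraries labelled knockout were set against the same 2 unstimulated WT libraries, so this comparison and the one before share their controls and are not independent. Here edgeR called 3 members higher, against 12% of all genes, and 11 lower, against 5.98%. The 3 higher genes were Npc2, Lgmn and Ctsz. The 11 lower ones were 6 of the pump (Atp6v1a, Atp6v1c1, Atp6v1h, Atp6v0d1, Atp6ap1 and Atp6ap2) and Hexa, Gusb, Npc1, Lamp2 and Tfeb. The median was -0.29 against -0.01 over all genes, with 33 of 42 values negative. Both knockout-labelled libraries lay above both WT ones for 6 members and below them for 24, where 32.5% of all genes lay above and 31.6% below.

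Npc2 had 1729 and 1331 CPM in the libraries labelled knockout against 820 and 767 CPM in WT (0.95, SE 0.145, edgeR adjusted p = 0.00434). Lgmn had 1220 and 996 CPM against 759 and 598 CPM (0.71, SE 0.155, edgeR adjusted p = 0.017). Ctsz had 1494 and 1285 CPM against 1015 and 849 CPM (0.58, SE 0.136, edgeR adjusted p = 0.0226). In all 3 genes both knockout-labelled libraries lay above both WT libraries.

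Hexa had 179 and 267 CPM in libraries labelled knockout against 366 and 394 CPM in WT (-0.77, SE 0.18, edgeR adjusted p = 0.0232). Npc1 had 102 and 139 CPM against 203 and 202 CPM (-0.75, SE 0.158, edgeR adjusted p = 0.0155). Replicate 1 of the knockout-labelled libraries was the lower one for both genes. Among the pump genes that fell, Atp6v1a had 178 and 222 CPM against 353 and 269 CPM (-0.63, SE 0.186, edgeR adjusted p = 0.0489). Atp6v1h, a regulatory V1 subunit, had 49.2 and 62.6 CPM against 85.6 and 76.6 CPM (-0.54, SE 0.135, edgeR adjusted p = 0.0282). Atp6ap2, the prorenin receptor that aids pump assembly, had 98.7 and 117 CPM against 155 and 145 CPM (-0.48, SE 0.107, edgeR adjusted p = 0.019). All 8 V1 subunits and all 6 V0 subunits of the list had negative values under each scaling, between -0.57 and -0.10 for the V1 and between -1.13 and -0.0046 for the V0 members that were not called. Of 12 further pump subunits and assembly genes tested, 5 had positive and 7 negative values, with a median of -0.08.

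Set side by side for the shared control, LPS in WT and the knockout label without stimulation gave log2 fold changes of +1.27 and +0.95 for Npc2, +1.13 and +0.71 for Lgmn, +0.91 and +0.58 for Ctsz, -0.999 and -0.77 for Hexa, -0.85 and -0.75 for Npc1, and -0.85 and -0.71 for Tfeb. Because both use the unstimulated WT libraries, this likeness is not a result of its own. Mature DC markers moved with the label as well: 5 of 9 tested rose and 0 fell, with sums of 18561 to 21805 against 10550 to 12513 CPM. Of 14 conventional DC markers 2 rose and 3 fell, with sums of 13266 to 16761 against 18971 to 20404 CPM. Of 9 tested neutrophil markers 4 fell, with sums of 89.2 to 95.7 against 111 to 172 CPM, and monocyte and macrophage markers summed to 3681 to 3746 against 3950 to 4191 CPM, with 3 of 15 called higher and 1 lower. Their part was not tested. Npc2 alone was called in each of 15 alternative fits. Without knockout-labelled replicate 1 the members called were 1 higher and 0 lower, without unstimulated WT replicate 2 they were 1 and 1, without unstimulated WT replicate 1 there were 3 lower, and without either LPS library labelled knockout there were 5 lower.

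**Figure D3:**
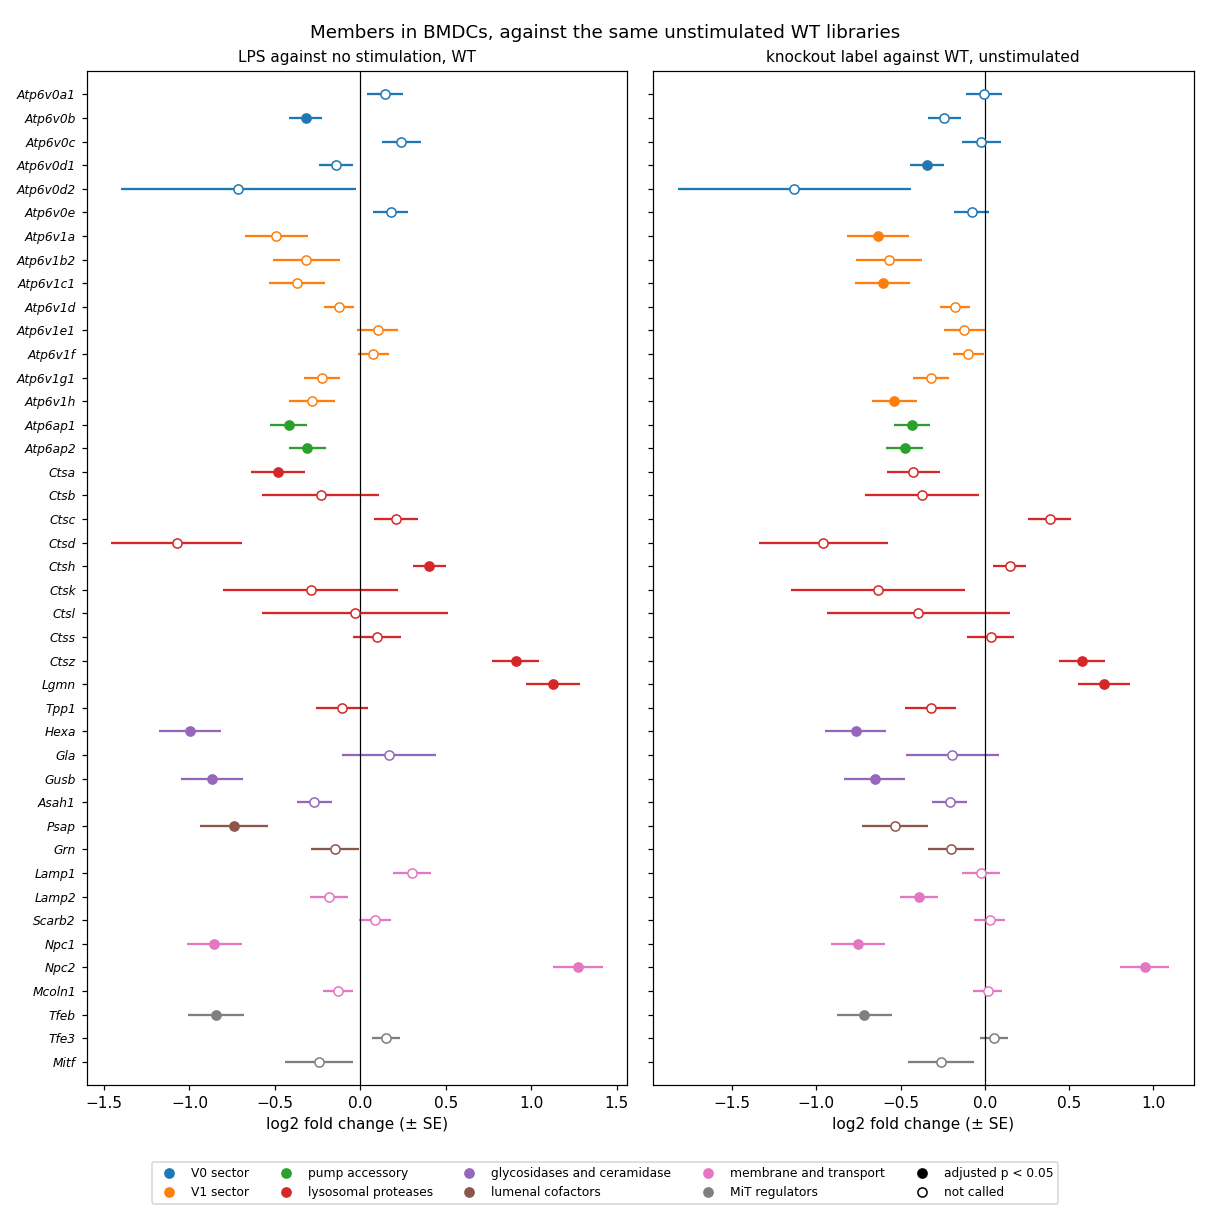
The log2 fold change of each of the 42 genes with its standard error, for LPS against no stimulation in WT BMDCs (left) and for the knockout label against WT without stimulation (right), both against the same unstimulated WT libraries. Filled symbols passed an adjusted p of 0.05: Npc2, Lgmn and Ctsz lie right of 0 and Hexa, Gusb, Npc1 and Tfeb left of 0 in both panels.

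In the libraries labelled knockout, LPS was compared with no stimulation. edgeR called 0 members higher and 0 lower, and also 0% of all genes in either direction. The smallest edgeR adjusted p over all genes was 0.0502, just above the threshold. With RLE scaling edgeR called 8 genes higher and 14 lower, and with a replicate block 147 and 174, with no member among them. An unadjusted p under 0.05 was reached by 2 members with higher values, Lamp1 and Npc2, against 9.75% of all genes, and by 10 with lower values, against 11.7%. DESeq2 called 4 lower (Ctsa, Gusb, Hexa and Psap) and 0 higher, where it called 3.37% of all genes lower and 2.69% higher, and limma-voom called 0 members and 0% of all genes. Both LPS libraries lay above both unstimulated ones for 5 members and below them for 21, against 27.1% and 28.7% of all genes. The 4 genes with the smallest p were hydrolases, a cofactor and a pump subunit with lower values. Hexa had 124 and 145 CPM with LPS against 179 and 267 CPM without (-0.73, SE 0.181, edgeR adjusted p = 0.0978). Psap had 2997 and 4211 CPM against 5228 and 6854 CPM (-0.75, SE 0.197, edgeR adjusted p = 0.103). Both genes had LPS libraries below the unstimulated ones. Ctsa, a carboxypeptidase that also protects beta-galactosidase and neuraminidase, had 226 and 269 CPM against 326 and 397 CPM (-0.54, SE 0.157, edgeR adjusted p = 0.114). Atp6v0b had 133 and 142 CPM against 161 and 182 CPM (-0.32, SE 0.0961, edgeR adjusted p = 0.124). The count of lower calls was 3, Gusb, Hexa and Npc1, without unstimulated knockout-labelled replicate 1. Monocyte and macrophage markers summed to 1380 to 2509 CPM with LPS against 3681 to 3746 CPM without, with 14 of 15 values negative and 0 called, and their part was not tested.

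With LPS, libraries labelled knockout were compared with WT libraries. edgeR called 0 members in either direction, as it did 0% of all genes, and DESeq2 and limma-voom called 0 members too, with 0.864% of all genes higher and 0.283% lower in DESeq2 and 0% in limma-voom. The list still lay to one side: 40 of 42 log2 fold changes were negative, the median was -0.28 against -0.01 over all genes, and both knockout-labelled libraries lay below both WT libraries for 31 members and above them for 0, where 23.3% of all genes lay below and 22.6% above. An unadjusted p under 0.05 was reached by 14 members with lower and 0 with higher values, against 4.84% and 5.33% of all genes. Here too the members share their libraries and are not independent, and the counts are given without a test. Grn had 442 and 558 CPM in libraries labelled knockout against 731 and 628 CPM in WT (-0.44, SE 0.139, edgeR adjusted p = 0.373). Ctsa had 226 and 269 CPM against 390 and 306 CPM (-0.49, SE 0.157, edgeR adjusted p = 0.388). Atp6v0c, the main proteolipid of the rotor ring, had 318 and 368 CPM against 454 and 416 CPM (-0.34, SE 0.116, edgeR adjusted p = 0.396). Each of these genes was lower in both knockout-labelled libraries. Npc2 (+0.04) and Scarb2 (+0.05), the receptor that carries glucocerebrosidase to lysosomes, were the 2 members with positive values. Within the knockout-labelled LPS group, replicate 1 was low for Ctsb (1020 and 1925 CPM), Ctsd (279 and 527 CPM), Ctsl (105 and 222 CPM) and Atp6v0d2 (21.3 and 66.3 CPM), the same library that held fewer monocyte and macrophage markers. These markers summed to 1380 to 2509 CPM in knockout-labelled against 2693 to 3391 CPM in WT LPS libraries, with 12 of 15 values negative and 0 called, and their part was not tested.

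**Figure D4:**
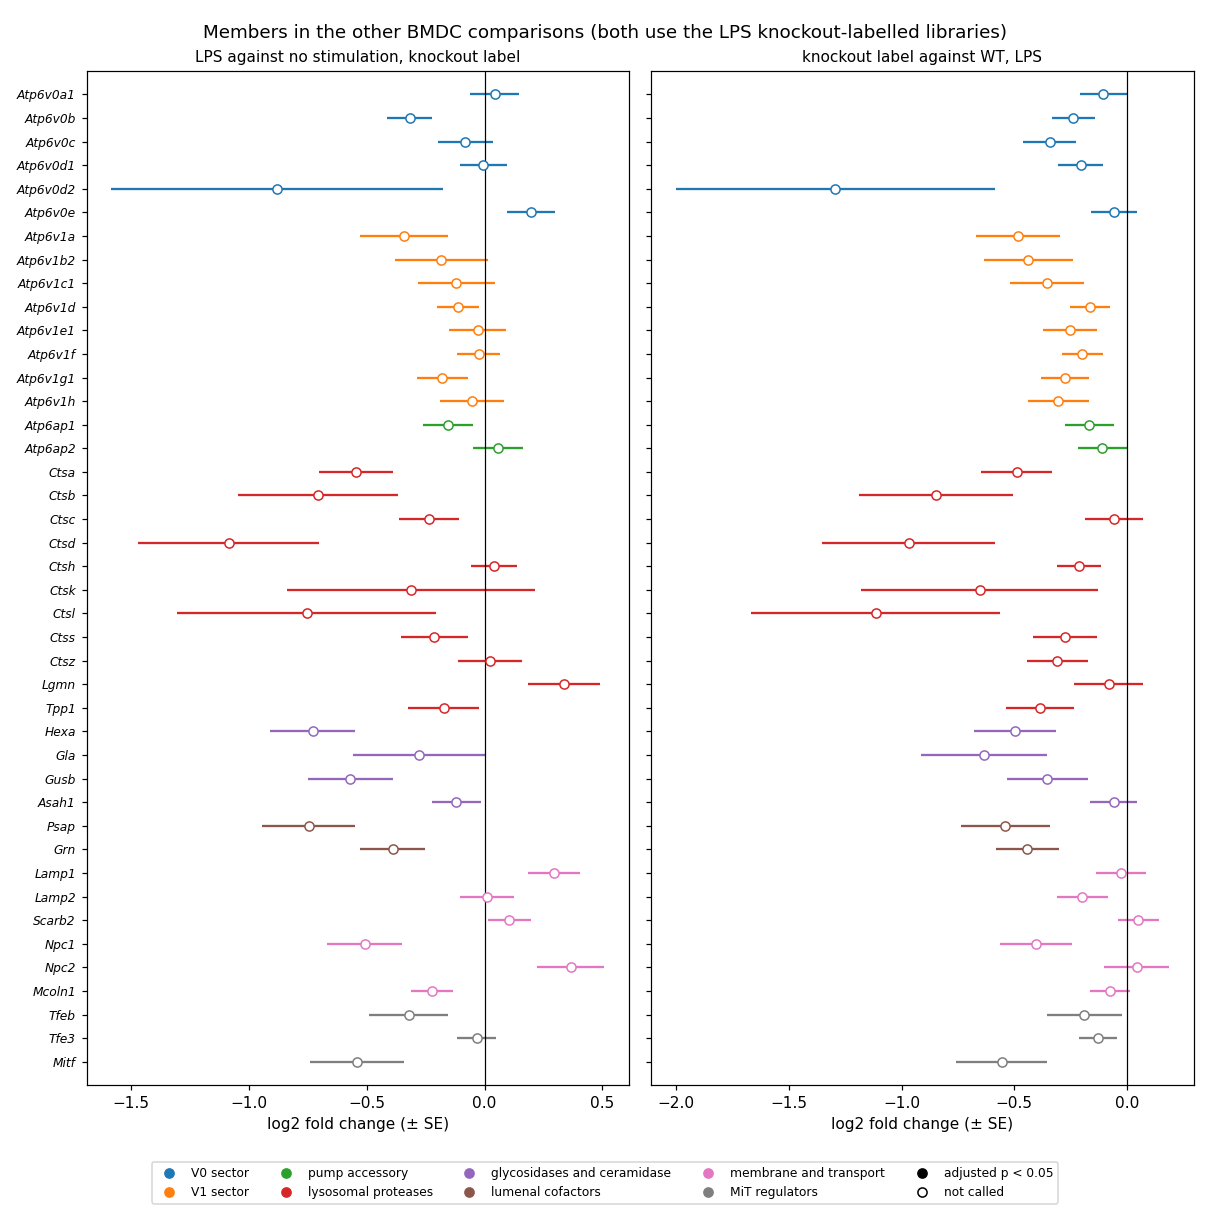
The log2 fold change of each of the 42 genes with its standard error, for LPS against no stimulation in libraries labelled knockout (left) and for the knockout label against WT with LPS (right), which share the LPS libraries labelled knockout. All symbols are open, since 0 genes passed, and on the right 40 of 42 lie left of 0.

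The LPS effect in libraries labelled knockout minus that in WT was tested as an interaction. edgeR called 0 members with a higher effect, against 0.566% of all genes, and 2 with a lower one, against 3.91%. They were Ctsz (-0.89, SE 0.192, edgeR adjusted p = 0.0385) and Npc2 (-0.91, SE 0.203, edgeR adjusted p = 0.0434). Ctsz had 1357 and 1465 CPM with LPS against 1494 and 1285 CPM without in libraries labelled knockout, and 1801 and 1698 against 1015 and 849 CPM in WT. Npc2 had 1919 and 2022 CPM with LPS against 1729 and 1331 CPM without in libraries labelled knockout, and 1971 and 1858 against 820 and 767 CPM in WT. With LPS the genotypes were close for Npc2, and the gap lay in the unstimulated libraries. Lgmn (-0.79, SE 0.218, edgeR adjusted p = 0.0803) and Ctsh (-0.36, SE 0.138, edgeR adjusted p = 0.174) came next and were not called. All 11 proteases had negative values, of which Ctsd turned positive under RLE scaling and in DESeq2, and Ctsa, Ctsd, Ctsk and Tpp1 under library-size scaling. An unadjusted p under 0.05 was reached by 1 member with a higher and 5 with a lower effect, against 7.54% and 13.8% of all genes. Neither call held in every alternative fit: Ctsz was called in 9 of 15 and Npc2 in 5 of 15, and 0 members were called without unstimulated WT replicate 2, unstimulated knockout-labelled replicate 1, or any one of the 4 LPS libraries.

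Averaged over both states, libraries labelled knockout differed from WT in 1 member that was higher, against 7.81% of all genes, and 14 that were lower, against 3.25%, both in edgeR. An unadjusted p under 0.05 was reached by 2 members with higher and 24 with lower values, against 16.9% and 12.9% of all genes. This average uses the libraries of both genotype comparisons above. Npc2 was the higher one (+0.49, SE 0.102, edgeR adjusted p = 0.0215). The lower ones led with Hexa (-0.63, SE 0.127, edgeR adjusted p = 0.0213), Npc1 (-0.58, SE 0.112, edgeR adjusted p = 0.0189) and Atp6v1a (-0.56, SE 0.131, edgeR adjusted p = 0.0345). They included 7 of the 16 pump genes (4 of the V1 sector, Atp6v0d1, Atp6ap1 and Atp6ap2), and besides these Psap, Ctsa, Gusb, Lamp2 and Tfeb. In the 4 libraries labelled knockout Hexa ranged between 124 and 267 CPM, against 179 to 394 CPM in the 4 WT libraries. The count of lower members was 0 without WT LPS replicate 1 or knockout-labelled LPS replicate 1, 2 without unstimulated knockout-labelled replicate 1, 3 without WT LPS replicate 2, and 4 without either unstimulated WT library or without knockout-labelled LPS replicate 2. Npc2 was not called without 6 of the 8 libraries taken one at a time.

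**Figure D5:**
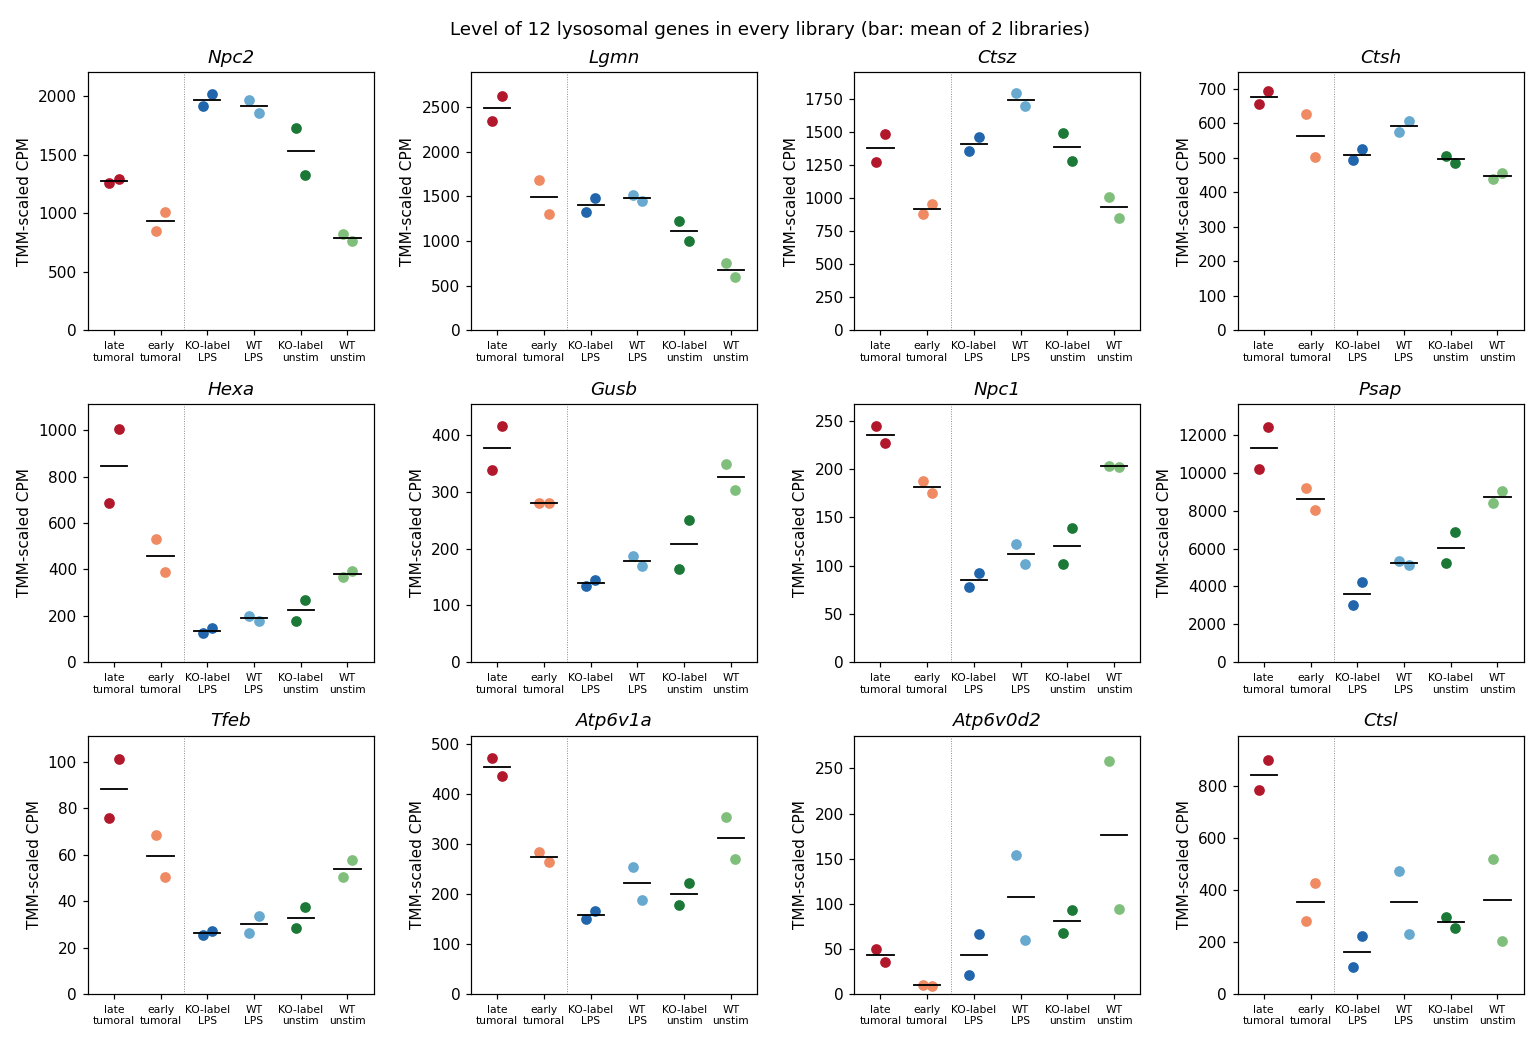
TMM-scaled CPM of 12 of the genes in each library, with 1 point per library in 6 groups and a bar at the mean of 2 libraries. Npc2, Lgmn and Ctsz are lowest among BMDCs in the unstimulated WT libraries (820 and 767, 759 and 598, 1015 and 849 CPM), where Hexa, Gusb, Npc1 and Psap are highest, and the points of Atp6v0d2 and Ctsl lie far apart within the WT groups. The dotted line parts the experiments, which were scaled separately.

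The 3 MiT factors differed from each other. Tfeb had 26.5 and 33.7 CPM in WT LPS libraries against 50.5 and 57.7 CPM in unstimulated WT libraries (-0.85, SE 0.164, edgeR adjusted p = 0.00489), and 28.5 and 37.3 CPM in unstimulated libraries labelled knockout (-0.71, SE 0.163, edgeR adjusted p = 0.0199). In the LPS libraries labelled knockout it had 25.3 and 27.4 CPM. Unstimulated WT libraries were thus the high group for Tfeb. Tfe3 stayed between 93.3 and 108 CPM in the 8 BMDC libraries and was called in 0 of the 7 comparisons by edgeR. Its log2 fold change of +0.15 for LPS in WT, and of +0.05 for the label without stimulation, turned to -0.05 in each when libraries were scaled by total alone. Mitf had 11.2 and 13.6 CPM in LPS libraries labelled knockout against 20.7 and 15.8 CPM in WT LPS libraries (-0.56, SE 0.202, edgeR adjusted p = 0.419). In tumoral DCs Tfeb had 75.8 and 101 CPM late against 68.6 and 50.3 CPM early (0.58, SE 0.256, edgeR adjusted p = 0.46), and Mitf 56.5 and 34.4 against 45.8 and 49.9 CPM (-0.07, SE 0.275).

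The paralogous V0 subunits Atp6v0d1 and Atp6v0d2 also differed. Atp6v0d1 was even within groups and fell in unstimulated libraries labelled knockout, with 153 and 179 CPM against 218 and 204 CPM in WT (-0.34, SE 0.101, edgeR adjusted p = 0.0477). Atp6v0d2 had 67.4 and 93.5 CPM against 258 and 94.6 CPM in the same libraries, and its value of -1.13 (SE 0.693) was not called. Some members overlap a tested gene on the opposite strand, by 12.8% of the exon bases for Hexa and for Ctsb, 10.5% for Ctsa, 9.31% for Lamp1, 4.52% for Npc1 and less for Grn, Atp6v1e1 and Ctsz, and reads of the pairs cannot be told apart without a strand setting.

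A wider set of 163 lysosomal, sorting, cathepsin inhibitor, nutrient-sensing and autophagy genes was counted beside the list. In WT BMDCs, LPS raised 24 and lowered 41 of the 147 tested, where 20% of all genes were called higher and 17.6% lower. Without stimulation 11 were higher and 29 lower in libraries labelled knockout, against 12% and 5.98% of all genes, and over both states 5 and 23, against 7.81% and 3.25%. The late stage, LPS in libraries labelled knockout, and the label with LPS gave 0 calls in edgeR. For the label with LPS, 12 further pump subunits and assembly genes had 7 positive and 5 negative values, with a median of +0.03. Averaged over both states they had 6 positive and 6 negative values, with a median of +0.03. The V0, V1 and accessory members of the list were all negative in both. Of 43 further hydrolases, LPS in WT raised 6 and lowered 16. Acp5, tartrate-resistant acid phosphatase, had 90.1 to 151 CPM in WT LPS libraries against 4.27 to 11.4 CPM in unstimulated WT libraries (3.94), and 75.0 to 122 CPM in unstimulated libraries labelled knockout (3.65). Acp5 is also among the osteoclast markers and made up 86.7% of their summed CPM in BMDCs. Of the 4 tested, Acp5 included, 2 rose and 1 fell with LPS in WT, and 2 rose and 0 fell with the label. Cst7, cystatin F, an inhibitor of cathepsins, had 13.2 to 19.3 CPM in WT LPS and 15.2 to 18.9 CPM in unstimulated knockout-labelled libraries against 2.32 to 5.79 CPM in unstimulated WT libraries. Naaa, an amidase of fatty acid ethanolamides, had 30.2 to 63.6 CPM in WT LPS libraries against 264 to 426 CPM (-2.88). Lipa, lysosomal acid lipase, had 195 to 243 CPM in WT LPS and 137 to 340 CPM in unstimulated knockout-labelled libraries against 637 to 763 CPM in unstimulated WT libraries (-1.68 and -1.55). Arsb, arylsulfatase B, had 9.48 to 19.1 CPM in unstimulated libraries labelled knockout against 31.6 to 34.3 CPM in WT (-1.20). These are the called genes with the largest changes at an average log2 CPM of at least 2.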

How the data were processed

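RNA was measured in 12 mouse libraries. The authors deposited raw, unnormalised counts for each symbol, in a tumoral and a BMDC table. Per the submitters' processing notes, fastp 0.12.4, HISAT2 2.2.1, featureCounts 2.0.1 and mm10 were used; for their order, the annotation and the strand setting nothing is stated in the sources at hand. The extraction text in the labels describes retinas, so the handling of these cells is not known here. All columns were matched to samples by name (0 unmatched).

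Each table was fitted separately in R 4.3.3 with edgeR 4.0.16 (filterByExpr, minimum count 10; TMM; glmQLFit, robust; glmQLFTest), with p-values adjusted by Benjamini-Hochberg across every tested gene and a call at an adjusted p under 0.05. The 8 BMDC libraries shared 1 fit and the 4 tumoral libraries another. The SE is the log2 fold change divided by the root of F. The biological coefficient of variation was 0.278 in tumoral DCs and 0.138 in BMDCs. In simulated counts, 200 genes above a log2 CPM of 2 were changed by a log2 of 2, with the same spread for every gene. Of these, 87% were recovered in the tumoral design (12817 genes), with 8 false calls. In the LPS comparison of WT BMDCs (12825 genes) 100% were recovered, with 7 false calls. Smaller changes were not simulated, so this recovery does not show how often changes as small as those of most members would be called. Alternatives were RLE and library-size scaling, DESeq2 1.42.0, limma-voom (limma 3.58.1), no filter, a filter of 10 CPM in 2 libraries, a replicate block and leaving out each library.

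The members and the lists of markers and related genes were chosen with earlier results of these data known. Values in every library are given, per comparison, for the 3 called members with the largest positive and the 3 with the largest negative change, or, with fewer than 3 called, for the 4 with the smallest p, and always for the MiT factors and Atp6v0d1. Further members were described after their values were seen. Of related genes the 2 called with the largest change in each direction are named. Exon lengths are from GENCODE M21, and positions and promoters from RefSeq GRCm38.p6.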

Additional observations from a re-analysis of the deposited data

Results flagged for a closer look

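A difference between genotype labels in the response to LPS was tested directly in edgeR, as the effect in libraries labelled knockout minus that in WT, and passed for 2 members, named in the report. Of 147 related genes tested it passed for 2 with a higher and 3 with a lower effect, against 0.566% and 3.91% of all genes. It was -0.89 for Ctsz and -0.91 for Npc2. Among related genes it was -4.10 for Acp5, with 69.4 to 107 CPM with LPS against 75.0 to 122 CPM without in libraries labelled knockout, and 90.1 to 151 against 4.27 to 11.4 CPM in WT. It was -1.01 for Ifi30, the lysosomal thiol reductase of antigen processing, with 653 to 752 against 589 to 669 CPM in libraries labelled knockout and 884 to 963 against 349 to 471 CPM in WT. It was +0.86 for Ccdc115, an assembly factor of the proton pump, with 26.4 to 30.9 against 26.3 to 26.9 CPM in libraries labelled knockout and 18.4 to 21.8 against 32.8 to 35.2 CPM in WT. It was +0.64 for Fuca1, alpha-fucosidase, with 92.0 to 103 against 98.9 to 114 CPM in libraries labelled knockout and 88.4 to 97.2 against 156 to 160 CPM in WT. It was -0.74 for Clcn7, a chloride-proton exchanger of lysosomes named here after its value was seen, with 162 to 181 against 189 to 195 CPM in libraries labelled knockout and 222 to 256 against 147 to 172 CPM in WT. The cause was not tested. Groups of 2 libraries were too small to look for single outlying libraries.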

How the results depend on the processing

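With 2 libraries a group, counts of members called moved with single libraries. Leaving out 1 library at a time gave 0 to 6 members higher late, 4 to 9 lower with LPS in WT, 0 to 3 lower with LPS in libraries labelled knockout, 1 to 3 higher and 0 to 11 lower for the label without stimulation, 0 to 3 in the interaction, and 0 to 2 higher and 0 to 17 lower for the label on average. A group left with 1 library was assumed to vary like the others. For the late stage, library-size scaling gave 1 higher, DESeq2 3, no filter 5 and the replicate block 3. Library-size scaling gave 19 lower with LPS in WT. DESeq2 gave 4 and no filter 3 lower with LPS in libraries labelled knockout, and DESeq2 2 higher on average. In the interaction 1 was lower under RLE, library-size scaling or the 10 CPM filter. The cause was not tested.

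Replicate numbers were not taken to pair the libraries, since not every correlation of same-numbered deviations passed 0.1: it was -0.0379 in tumoral DCs, between -0.200 and -0.0762 for the 3 BMDC pairs with knockout-labelled LPS libraries and between 0.123 and 0.275 for the other BMDC pairs, and the block moved no other count by over 1.5 times. The highest of these correlations, 0.275, was between unstimulated and LPS-treated WT libraries, and a pairing of these groups alone was not tested. Every called member kept its sign in all 15 alternatives. Of 1168 values of single genes, 937 kept direction and side of the threshold, 193 lost and 30 gained a call, and 8 changed sign, none of them called: Mitf late (-0.50 to 0.24 when leaving out 1 library), Tfe3 under library-size scaling (-0.0535 for LPS in WT and -0.0497 for the label without stimulation), and Atp6v0d1 for LPS in libraries labelled knockout (0.00979 under RLE, 0.00971 in DESeq2, 0.000534 in limma-voom, 0.11 without unstimulated knockout-labelled replicate 2 and 0.00102 without LPS knockout-labelled replicate 1). Library-size scaling moved the median of all genes by -0.20 for LPS in WT, -0.11 for the late stage, -0.10 for the label without stimulation and 0.13 for the interaction.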

Other observations

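Among related genes that the main comparisons did not cover in detail, sorting genes and nutrient-sensing genes were counted. Of 12 hydrolase sorting genes, LPS in WT BMDCs raised 4 and lowered 1 in edgeR. Gnptab, which makes the mannose 6-phosphate tag of hydrolases, was at +0.89 and the adaptor Gga3 at +1.14, and without stimulation the knockout label gave +0.68 and +0.67 against the same WT libraries. Of 24 genes of nutrient sensing and MiT control, LPS in WT raised 4, with Mtor at +0.55 and Tsc1 at +0.51, and lowered 8, with the folliculin partner Fnip2 at -1.11 and the GTPase Rragb at -1.28. Of 21 tested autophagy genes LPS in WT raised 4 and lowered 3. These counts stand beside 20% of all genes called higher and 17.6% called lower in that comparison.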
